A study of Drosophila melanogaster with 14 samples.

Results

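The mRNA-Seq levels of 55 genes of oxidative phosphorylation were examined in Drosophila melanogaster embryos, 13 of them encoded by mitochondrial DNA and 42 by nuclear chromosomes. They were taken by gene identifier from the 13781 genes of the deposited table. Earlier results of these data were known when these genes were chosen, so counts over them are descriptions only. All 55 were among the 11584 genes that passed the filter on low values. The mitochondrial members code for 7 subunits of complex I, 1 of complex III, 3 of complex IV and 2 of complex V, while the nuclear members code for 9 subunits of complex I, 4 of complex II, 7 of complex III, 9 of complex IV, 12 of complex V and the electron carrier cytochrome c. Members measured in 1 library are not replicates of each other, and every comparison below was made over libraries.

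The embryos were of 3 genotypes at stage 17 and stage 16, and each library came from a pool of 50 embryos. Homozygotes (Ho) carried Df(2L)32FP-5 on both second chromosomes, a deficiency that removes the adjacent zinc finger genes salm and salr, and were picked from a stock balanced with CyO-GFP because they lacked GFP. Heterozygotes (He, Df(2L)32FP-5/+) were the progeny of females from that stock and white males, and wild type (WT) embryos were Oregon R. Each stage had 3 Ho, 2 He and 2 WT libraries, named here by genotype, stage and experiment letter, where ab stands for grouped technical replicates of experiments a and b. Stages were taken from the sample titles, because the stage field gave stage 16, at 13 to 14 hours of development, for all 14 libraries. The genotypes also differed in strain background. Mitochondrial DNA is inherited from the mother, so that Ho and He embryos shared the maternal mitochondria of the deficiency stock and WT embryos had those of Oregon R, and the effects of genotype, strain and maternal mitochondria cannot be told apart.

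Oxidative phosphorylation takes place in the inner mitochondrial membrane. Complexes I and II pass electrons to ubiquinone, complex III passes them on to cytochrome c, complex IV hands them to oxygen, and complex V, the ATP synthase, uses the resulting proton gradient to make ATP. Complexes I, III, IV and V combine core subunits made inside the organelle from its own circular genome with nuclear subunits made in the cytosol and imported, whereas all subunits of complex II are nuclear. The mitochondrial genes are read from both strands as long precursors that are cut at the tRNAs between them, and the resulting mRNAs are polyadenylated, so that a poly-A selected library holds products of both genomes.

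Libraries held between 4754540 and 23202632 reads on genes, with the fewest in Ho16a and Ho16b. The targeted genes set Ho apart, with 0 to 96 salm reads and 0 to 19 salr reads in Ho libraries, against 768 to 2651 and 603 to 1660 in He and WT libraries. Summed per 1000000 reads on genes, they reached 7.99 in Ho16a and 5.81 in Ho17a, the highest Ho library of each stage. They were at 140 to 148 in He16, 147 to 192 in WT16, 81.2 to 97.9 in He17 and 102 to 126 in WT17. He and WT thus overlapped at stage 16. A pair of libraries stood apart in how levels depended on transcript length. The fitted deviation at 500 bases minus that at 5000 bases was +1.63 units of the deposited scale in Ho16a and -1.23 in Ho16c, against -0.44 to +0.35 in the other 12 libraries. The exons of the nuclear members were short, with a median of 962.5 bases, and those of the mitochondrial members had a median of 789 bases, against 1965 bases over all tested genes. With the length trend removed from each library before the fit, the median limma difference of Ho16 over WT16 on the deposited scale was 3.28 over the mitochondrial and 0.35 over the nuclear members, against 3.34 and 0.41 with the trend left in. Ho16c also stood apart in having 4514 genes without reads, against 1376 to 2803 in the other 13 libraries, and the part of this in the results was not tested. Summed body wall muscle markers were higher at stage 17, at 33109 to 44137 CPM (reads per 1000000 reads on genes), against 16080 to 24366 at stage 16. Summed neuronal markers were lowest in Ho16a, at 86.0 CPM, against 317 to 699.9 in the other 13 libraries. The highest sum, 699.9 CPM, was in Ho16c. These are the libraries whose length trends stood apart, in opposite directions, and the part of the length trend in the neuronal sums was not tested. Summed fat body markers, of which 2 were tested, were at 6.29 to 7.36 CPM in Ho16, against 2.33 to 2.49 CPM in He16 and 1.2 to 2.17 CPM in WT16. At stage 17 they were at 1.52 to 40.3 CPM in Ho, against at most 0.81 CPM in He and 0.45 CPM in WT. Both tested markers were higher in Ho17 than in WT17 at an unadjusted p under 0.05 (limma), with a median log2 ratio of 4.55. This ratio lay near the floor, as the WT17 libraries had 2 and 0 reads of each marker, Lsp2 and Tsf1. The Ho17 libraries had 21, 32 and 16 reads of Lsp2 and 728, 155 and 13 of Tsf1. Their part in the genotype comparisons was not tested. Whole embryos hold all these cell types, and fewer cells of a type cannot be told apart from less RNA per cell.

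The mitochondrial members varied far more from library to library than the nuclear ones. Their summed level ran from 378 to 10265 CPM, a 27.2-fold range, whereas the 42 nuclear members together ran from 8833 to 18047 CPM, a 2.04-fold range. At stage 17 the summed mitochondrial level was 615, 931 and 2530 CPM in Ho, 512 and 1264 CPM in He, and 378 and 3345 CPM in WT libraries. At stage 16 it was 3308, 1737 and 10265 CPM in Ho, 778 and 4713 CPM in He, and 646 and 1514 CPM in WT libraries. The c library of each of the 6 groups had the highest mitochondrial sum of its group, and Ho16c was the only library with more mitochondrial than nuclear reads, with a ratio of 1.16. Between the c library and each other library of its group, summed mitochondrial normalized reads differed by 2.28-fold to 7.89-fold. Normalized reads are the recovered read counts divided by the size factor of the library.

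**Figure D1:**
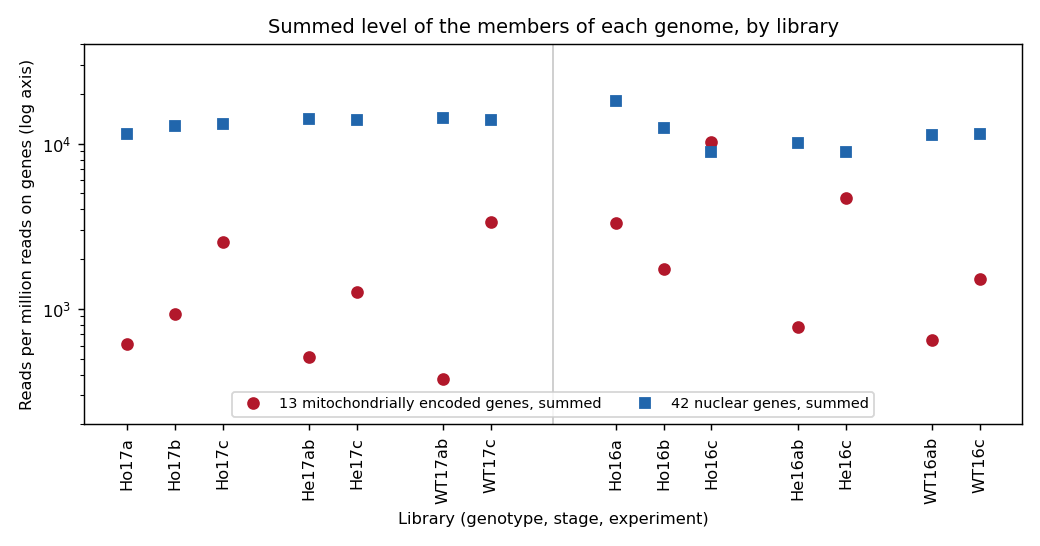
Summed CPM (reads per 1000000 reads on genes, log axis) of the 13 mitochondrially encoded genes (red circles) and the 42 nuclear genes (blue squares) in each of the 14 libraries, with stage 17 on the left and stage 16 on the right. The red points spread over a 27.2-fold range and the blue points over a 2.04-fold range, and in Ho16c the red point lies above the blue one.

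The same contrast held gene by gene. The median within-group standard deviation of log2 normalized reads was 1.64 for the mitochondrial members and 0.45 for the nuclear members, against 0.54 for all tested genes. From the lowest to the highest library the mitochondrial members spanned a median of 6.68 on the log2 scale and the nuclear members a median of 2.05. The highest library was Ho16c for 12 of 13 mitochondrial members, and Ho16a for mt:ATPase8. Among the 42 nuclear members, 30 were highest in Ho16a, while 16 were lowest in Ho16c and 14 in He16c.

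Per kilobase of exon, averaged over the 14 libraries, the 3 mitochondrial genes of complex IV were the most abundant of their genome. mt:CoI (CG34067), the catalytic subunit of cytochrome c oxidase, reached 679 CPM per kilobase, mt:CoIII (CG34074) 449 and mt:CoII (CG34069) 354, followed by mt:Cyt-b (CG34090), the mitochondrial subunit of complex III, at 234. mt:ATPase6 (CG34073), the proton channel subunit of ATP synthase, had 169 CPM per kilobase. The complex I subunits mt:ND4 (CG34085), mt:ND1 (CG34092) and mt:ND5 (CG34083) had 88.9, 64.9 and 63.1. The other 5 members were scarce, at 9.34 for mt:ND3 (CG34076), 8.92 for mt:ND2 (CG34063), 8.58 for mt:ATPase8 (CG34072), 5.14 for mt:ND4L (CG34086) and 2.93 for mt:ND6 (CG34089). These 5 had 268 to 1805 reads each over all libraries together, so that counting error weighs on them, whereas the other 8 had at least 14181. The mitochondrial means lean on Ho16c. Without it mt:Cyt-b had 141 and mt:ATPase6 91.2 CPM per kilobase, mt:ND5 (42.4) was above mt:ND1 (34.8), and mt:ATPase8 (7.28) was above mt:ND2 (5.19) and mt:ND3 (4.51), while the first 6 kept their order. In the nuclear genome 2 subunits of ATP synthase were at the top, blw (CG3612, alpha) at 762.2 and ATPsynC (CG1746, the c subunit of the rotor ring) at 657 CPM per kilobase. COX6B (CG14235) and COX5A (CG14724) of complex IV had 539 and 472, Cyt-c-p (CG17903), cytochrome c, had 455, and ATPsynbeta (CG11154, beta) of ATP synthase had 454. The lowest nuclear member per kilobase was ATPsyndelta (CG2968), at 31.0, whose annotated exons overlap those of CG2962 over 1264 bases. Its exon length, 3817 bases, was the longest of the nuclear members. By CPM alone it was not the lowest, as its 56.4 CPM in Ho16c, its lowest library, exceeded the lowest nuclear mean of 52.1 CPM.

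**Figure D2:**
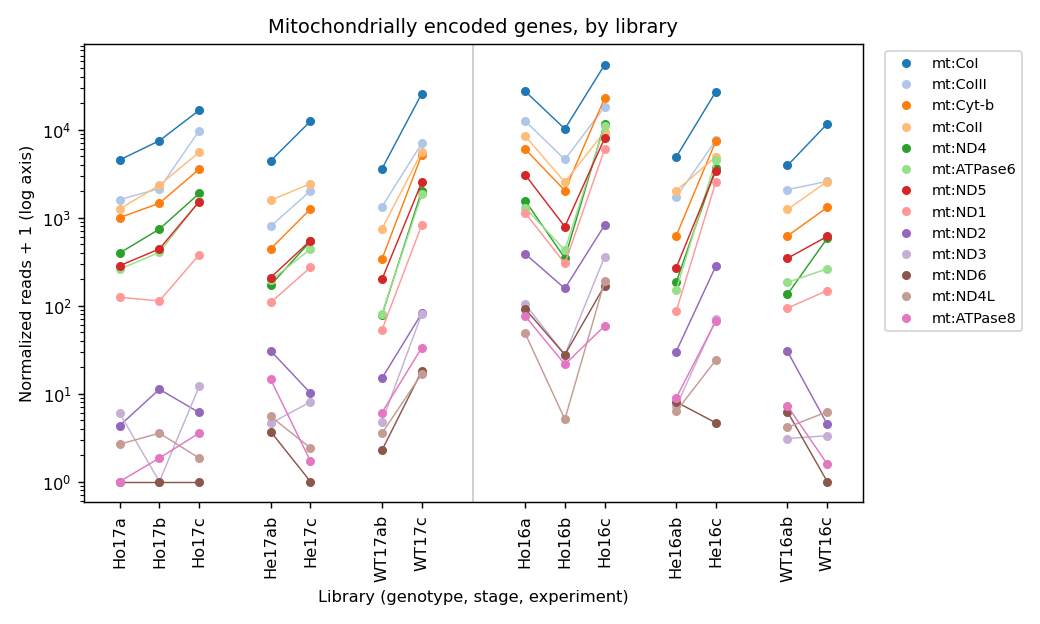
Normalized reads plus 1 (log axis) of each mitochondrially encoded gene in the 14 libraries, stage 17 left and stage 16 right, where lines only join the points of 1 gene within a group. mt:CoI is on top in all libraries, and mt:ND6 had 0 reads in the 3 Ho17 libraries, against 26.7 to 168 normalized reads in Ho16.

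The comparison of Ho16 with WT16 asked how the transcriptome of the mutant differs at the earlier stage. All 13 mitochondrial members had more normalized reads in Ho16, with a median log2 ratio of 2.86 (7.26-fold) and a range of 1.72 to 4.99. The median was 0.34 over the 42 nuclear members and -0.10 over all tested genes. For 9 of the 13 mitochondrial members, or 69.2%, every Ho16 library lay above both WT16 libraries, which was so for 8.5% of all tested genes and for 5 nuclear members. Nevertheless, no member of either genome was called by limma at an adjusted p of 0.001 (Benjamini-Hochberg over all tested genes), nor at 0.05. Of all 11584 tested genes, 1 was called higher and 0 lower (0.00863% and 0.0%), and at 0.05 the shares were 0.0432% and 0.0518%. At an unadjusted p of 0.05, 7 mitochondrial members were higher and no nuclear member differed, against 2.85% of all tested genes higher and 3.76% lower. Run on the recovered reads as an alternative, the exact negative binomial test called 13 of 13 mitochondrial members higher and 0 of 42 nuclear members, where it called 1.8% of tested genes higher.

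mt:CoI had 27467, 10259 and 54917 normalized reads in Ho16a, Ho16b and Ho16c, against 3933 and 11706 in WT16ab and WT16c. Ho16c and Ho16a were above both WT libraries, and Ho16b was between them. Its log2 ratio was 1.88, and limma gave a difference of 2.02 ± 1.11 on the deposited scale (SE, adjusted p = 0.786, Benjamini-Hochberg). mt:CoIII, another core subunit of cytochrome c oxidase, had 12598, 4610.1 and 18248 normalized reads in Ho16, against 2092 and 2592 in WT16. Its groups did not overlap, and Ho16b was again the lowest of the Ho libraries. mt:Cyt-b had 6051, 2039 and 22905 normalized reads in Ho16, against 621 and 1313 in WT16, without overlap, with a limma difference of 3.58 ± 1.6 (SE, adjusted p = 0.744). mt:ND1, a core subunit of the membrane arm of complex I, had 1139, 302 and 6014 normalized reads in Ho16, against 92.8 and 148 in WT16.

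The member with the smallest p in this comparison was mt:ND2, also of the membrane arm of complex I. It had 389, 156 and 824 normalized reads in Ho16, against 29.2 and 3.49 in WT16, with a limma difference of 4.29 ± 0.99 on the deposited scale (SE, adjusted p = 0.215). The Ho16 libraries were all above the WT16 libraries, although WT16c rested on only 6 reads. mt:ND6 had 23, 13 and 183 reads in Ho16, against 5 and 0 reads in WT16, with an adjusted p of 0.346 in limma. A read count of this size leaves a wide counting error, and the deposited scale stretches low values (1 unit equals a log2 change of 2.28 in reads around a value of 2 and of 0.76 around 10).

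The size of the mitochondrial difference changed with the libraries used. The summed mitochondrial normalized reads of Ho16a and Ho16b were 7.19 and 2.48 times those of WT16ab, and those of Ho16c were 7.27 times those of WT16c. Against WT16c the sum of Ho16b was 1.09 times as high, and 4 of its members, mt:CoI, mt:CoII, mt:ND4 and mt:ND4L, were lower. Without Ho16c the median log2 ratio was 1.76, and without both Ho16a and Ho16c it was 0.99, with all 13 members still higher. The nuclear members were not stable in direction. Their median of 0.34 became -0.20 without Ho16a, with 12 members higher and 30 lower, and 0.73 without Ho16c.

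He16 was compared with WT16 in the same way. All 13 mitochondrial members were again on the higher side, with a median log2 ratio of 1.30, although in only 3 did every He16 library exceed both WT16 libraries (17.3% of all tested genes did so). This difference rested on 1 library. Without He16c the median was -0.44, with 6 members higher and 7 lower. Summed mitochondrial normalized reads in He16ab were 1.15 times those of WT16ab, and those in He16c were 3.13 times those of WT16c. limma called no member at 0.001 or 0.05 and none had an unadjusted p under 0.05 (0.63% of all tested genes did so on the higher and 0.596% on the lower side), whereas the exact negative binomial test called 6 mitochondrial members higher and no nuclear member (0.391% of tested genes higher, 0.287% lower). Of the 42 nuclear members 39 were on the lower side, with a median log2 ratio of -0.33, and in 23, or 54.8%, both He16 libraries were below both WT16 libraries, against 17% of all tested genes. blw had 16408 and 15580.4 normalized reads in He16, against 19898 and 22499 in WT16, a log2 ratio of -0.40 whose adjusted p in limma was 1.

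Between Ho16 and He16, which share the maternal mitochondria, the mitochondrial median log2 ratio was 1.48 and the nuclear one 0.68, with all 55 members on the higher side in Ho16. The Ho16 libraries were all above the He16 libraries for 1 mitochondrial member, mt:ND6, and 10 nuclear members, against 7.95% of all tested genes, and no member was below without overlap (10.3%). Without Ho16a and Ho16c the mitochondrial median was -0.19 and the nuclear one 0.40. limma called no member at 0.001 or 0.05, and 1 mitochondrial and 6 nuclear members were higher at an unadjusted p under 0.05 (2.64% of all tested genes higher, 3.82% lower). By the exact negative binomial test 1 mitochondrial and no nuclear member was called, against 0.669% of tested genes higher. Comparisons of Ho16 with WT16 and with He16 share the Ho16 libraries.

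The genotypes were compared in the same way at stage 17. Over Ho17 and WT17 the mitochondrial median log2 ratio was -0.26 and the nuclear one -0.16, against -0.03 over all tested genes. mt:CoI had 4548, 7532 and 16679.8 normalized reads in Ho17, against 3612 and 25779.6 in WT17. All 3 Ho17 libraries were between the WT17 libraries. In 3 mitochondrial members, the scarce mt:ND2, mt:ATPase8 and mt:ND6, all Ho17 libraries were below both WT17 libraries, and so were 9 nuclear members, against 15.8% of all tested genes. mt:ND2 had 3.32, 10.2 and 5.11 normalized reads in Ho17, against 14.0 and 80.9 in WT17. The mitochondrial median depended on WT17c, and was 1.27 without it. limma called no member at 0.001 or 0.05, where 0.0691% of all tested genes were higher and 0.095% lower at 0.05. At an unadjusted p under 0.05, 1 mitochondrial and 2 nuclear members were lower, against 4.07% of all tested genes, and none was higher, against 4.08%. Neither did the exact negative binomial test call a member.

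ox (oxen, CG8764), a small subunit of complex III, had the lowest nuclear ratio in this comparison. It had 416, 531 and 524 normalized reads in Ho17, against 676 and 1322 in WT17, and a limma difference of -1.23 ± 0.56 on the deposited scale (SE, adjusted p = 0.606). At stage 16 it stood the other way round, with 1743, 795 and 689 normalized reads in Ho16, against 605 and 559 in WT16, without overlap at either stage. Reads of ox may include some of mRpL18, which overlaps its exons over 41 bases on the opposite strand, as use of strand in counting was not given in the sources used here. COX5B (CG11015), a nuclear subunit of complex IV, had 1261, 1692 and 2156 normalized reads in Ho17, against 3048 and 2823 in WT17, with all Ho17 libraries lower (adjusted p = 0.725, limma). On the other side, cype (CG14028), subunit 6C of complex IV, had 2665, 2864 and 3001 normalized reads in Ho17, against 2302 and 2419.6 in WT17, a log2 ratio of 0.27. ATPsynF (CG4692), subunit f of ATP synthase, had 3406, 4413 and 4855 in Ho17, against 3591 and 3193 in WT17, with overlap.

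He17 against WT17 gave a mitochondrial median log2 ratio of -0.99, with 13 of 13 members on the lower side but none without overlap. By letter, 11 of 13 members were higher in He17ab than in WT17ab, with a median log2 ratio of 0.70. Between He17c and WT17c 0 of 13 were higher, with a median of -2.07, so that the direction rested on the c libraries. The nuclear median was -0.01, and in 4 nuclear members both He17 libraries were above WT17 (15.8% of all tested genes). Ho17 against He17 gave a mitochondrial median of 0.15 and a nuclear one of -0.17, with 11 nuclear members below without overlap (14.2% of all tested genes). In both comparisons limma called no member at 0.001 or 0.05, and none had an unadjusted p under 0.05. Over all tested genes 1.09% were higher and 1.44% lower at that level in He17 over WT17, and 2.65% and 2.3% in Ho17 over He17. The exact negative binomial test called 5 mitochondrial members lower in He17 than in WT17 and 2 higher in Ho17 than in He17, and no nuclear member, where it called 0.648% and 2.14% of tested genes in the same direction.

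**Figure D3:**
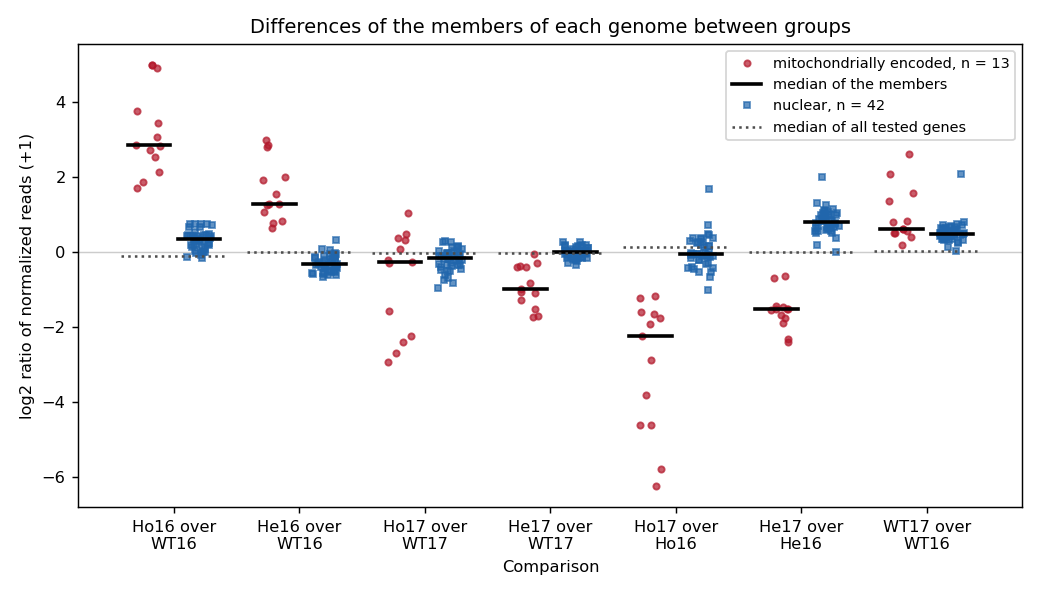
Log2 ratio of normalized reads (plus 1) of each mitochondrially encoded member (red) and each nuclear member (blue) in 7 comparisons, with the median of each genome as a black bar and the median of all tested genes as a dotted line. The mitochondrial median runs from 2.86 for Ho16 over WT16 to -2.22 for Ho17 over Ho16, and the nuclear median from -0.33 for He16 over WT16 to 0.80 for He17 over He16.

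The comparison of stages within a genotype asked how levels changed with development. In WT and He embryos the nuclear members were on the higher side at stage 17 without exception in the fitted differences. Over WT17 and WT16 their median log2 ratio was 0.48, against 0.03 over all tested genes, and in 32 of 42, or 76.2%, both stage 17 libraries were above both stage 16 libraries, against 33.5% of all tested genes. Over He17 and He16 the median was 0.80, and 40 of 42, or 95.2%, did not overlap, against 33.8%. The exceptions in He were ox and SdhD (CG10219), a membrane anchor of complex II. Without WT17c the nuclear median in WT was 0.64, and without He16c that in He was 0.71. No nuclear member was called by limma at 0.001 in either genotype, where 2.77% of all tested genes were called higher and 0.596% lower in WT, and 2.49% higher in He. At an adjusted p under 0.05, 1 nuclear member was higher in WT (10.5% of all tested genes) and 2 in He (9.19%), and at an unadjusted p under 0.05, 3 in WT (17.4% of all tested genes) and 10 in He (15.5%) were higher. The exact negative binomial test called 1 nuclear member in WT, Cyt-c-p, and 3 in He, namely Cyt-c-p, ATPsynO (CG4307) and ATPsynB (CG8189), where it called 15.2% and 13.2% of tested genes higher.

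All 12 nuclear members of ATP synthase were above stage 16 without overlap in both WT and He, with median log2 ratios of 0.64 and 1.03. blw had 38378 and 27957 normalized reads in WT17, against 19898 and 22499 in WT16, and 31435 and 36121 in He17, against 16408 and 15580.4 in He16. Its log2 ratios were 0.63 and 1.08, with adjusted p of 0.316 and 0.0631 in limma. ATPsynD (CG6030), subunit d of the stalk, had 5161 and 5306 normalized reads in He17, against 2626 and 2305 in He16, a limma difference of 1.38 ± 0.33 on the deposited scale (SE, adjusted p = 0.0147). Its WT libraries gave 5186 and 5113 normalized reads at stage 17, against 3187 and 3252 at stage 16 (adjusted p = 0.120, limma). The level of this gene was thus nearly equal in both libraries of a group and apart between stages.

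All 9 nuclear members of complex IV were likewise above stage 16 without overlap in both genotypes, with medians of 0.47 in WT and 0.68 in He. COX6B had 6648 and 7534 normalized reads in WT17, against 4873 and 4539 in WT16, and its exons overlap those of CG18809 over 74 bases on the same strand. The medians were 0.36 in WT and 0.65 in He for complex I, and 0.50 and 0.84 for complex III. UQCR-Q (CG7580), a small subunit of complex III, had 2060.2 and 1743 normalized reads in WT17, against 1214 and 973 in WT16, a log2 ratio of 0.80 (adjusted p = 0.422, limma). ND-75 (CG2286), the largest subunit of complex I, had 7609 and 4622 in WT17, against 5467 and 4660.4 in WT16, with overlap. Among the 4 members of complex II, which has no mitochondrial gene, none was without overlap in WT and 3 were so in He. SdhA (CG17246), its flavoprotein, had 7626 and 4434 normalized reads in WT17, against 5201 and 4074 in WT16.

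The nuclear members behaved otherwise in Ho. Over Ho17 and Ho16 their median log2 ratio was -0.05, with 3 members above and 1 below without overlap, against 22% and 13.5% of all tested genes. The direction turned with the Ho16 library left out. Without Ho16a the median was 0.51, with 38 of 42 members on the higher side. Of these 21, or 50%, did not overlap, against 27% of all tested genes. Without Ho16c the median was -0.51, with 9 members on the higher side and 33 on the lower. Without both Ho16a and Ho16c it was 0.18. UQCR-C1 (CG3731), a core protein of complex III, shows the part of Ho16a. It had 7067, 8449.5 and 7937 normalized reads in Ho17, against 23104, 6682 and 4087 in Ho16, so that Ho16a was above and Ho16b and Ho16c were below all Ho17 libraries. ND-30 (CG12079), of the peripheral arm of complex I, likewise had 6253 normalized reads in Ho16a, against 1205 to 1679.8 in the other 6 stage 16 libraries. ND-49 (CG1970) of the same arm did not have this pattern, with 2879, 2014 and 2685 in Ho16, against 2529 and 3109.6 in WT16. blw had 31160.1, 36331 and 29658 normalized reads in Ho17, against 22155, 17621 and 18872 in Ho16, without overlap (log2 ratio 0.73, adjusted p = 0.0746, limma).

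Cyt-c-p was the one member called by limma at the threshold of 0.001, and only in Ho, where 6.91% of all tested genes were called higher and 1.04% lower. It had 5999, 9287 and 9417 normalized reads in Ho17, against 2986, 1860.5 and 2781 in Ho16, with means of 8234 ± 1937 and 2542 ± 599 (SD, n = 3 each). It rose by 2.11 ± 0.35 on the deposited scale (SE, adjusted p = 0.00067, limma with Benjamini-Hochberg adjustment), a log2 ratio of 1.69 or 3.24-fold. In He it had 7596 and 5940.4 normalized reads at stage 17, against 2007 and 1388 at stage 16, a log2 ratio of 2.01 (adjusted p = 0.00145, limma). In WT it had 8138 and 6609 at stage 17, against 1616 and 1844 at stage 16, a log2 ratio of 2.09 (adjusted p = 0.00108, limma). The 7 stage 17 libraries were all above the 7 stage 16 libraries. The stage difference was not shown to depend on genotype, as the interaction had an adjusted p of 0.984 for Ho against WT and 1 for He against WT. The call in Ho was kept under 9 of 26 alternatives, and when single libraries were left out only without Ho16a or without Ho16c. In all 26 alternatives the difference was positive, from 1.68 to 2.66.

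**Figure D4:**
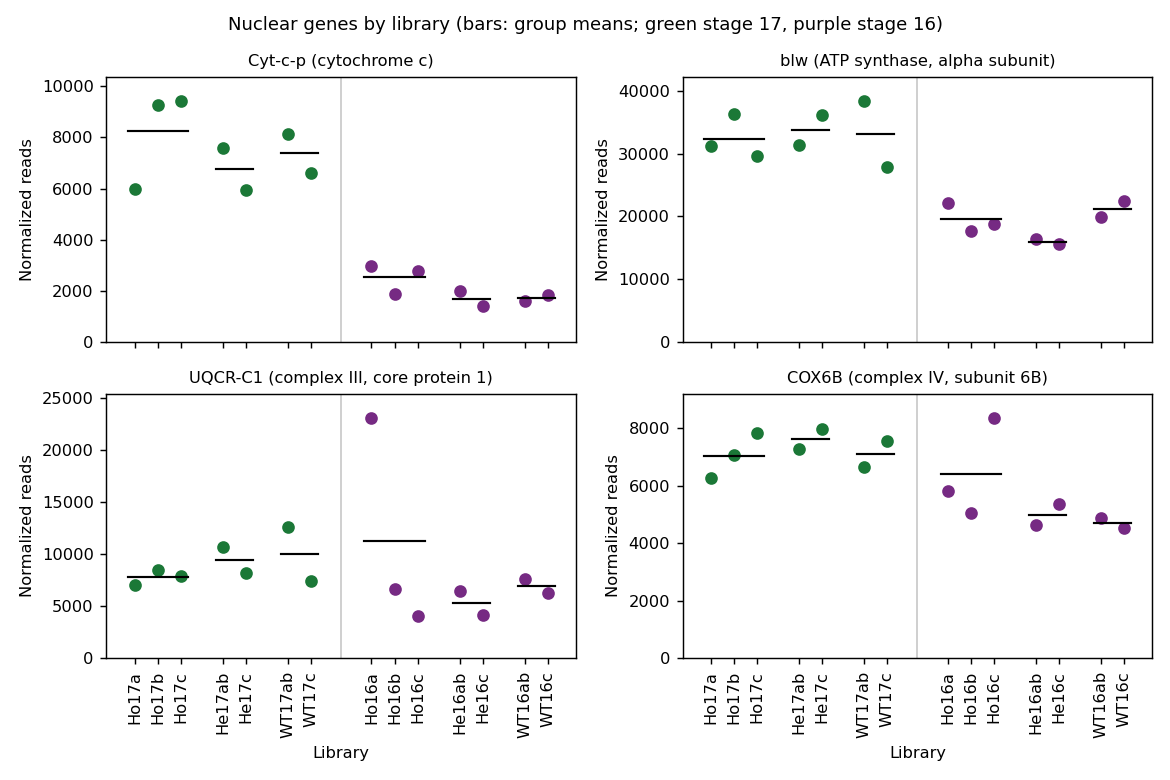
Normalized reads (linear axis from 0) of Cyt-c-p, blw, UQCR-C1 and COX6B in each library, with stage 17 in green on the left and stage 16 in purple on the right, and group means as bars. Cyt-c-p and blw are separated by stage in all libraries, while UQCR-C1 reaches 23104 normalized reads in Ho16a and COX6B 8352 in Ho16c.

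The mitochondrial members gave a different picture by stage in each genotype. Over Ho17 and Ho16 all 13 were on the lower side, with a median log2 ratio of -2.22 (4.67-fold), against 0.13 over all tested genes, and in 5 all Ho17 libraries were below all Ho16 libraries, against 13.5% of all tested genes. Over He17 and He16 all 13 were lower too, with a median of -1.51, and 2 did not overlap (29.9% of all tested genes). Over WT17 and WT16 all 13 were on the higher side, with a median of 0.62, and 1 did not overlap (33.5% of all tested genes). The He value rested on He16c and was -0.05 without it, and the WT value rested on WT17c and was -0.91 without it. In Ho the median was -0.51 without Ho16a and Ho16c. Set side by side by letter, the mitochondrial sum of Ho17 was 0.152, 0.705 and 0.284 times that of Ho16 for letters a, b and c, that of He17 was 0.80 and 0.323 times that of He16 for ab and c, and that of WT17 was 0.745 and 2.58 times that of WT16.

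limma called no mitochondrial member between stages at 0.001. In Ho 5 were lower at an adjusted p under 0.05, against 8.49% of all tested genes, and 6 at an unadjusted p under 0.05, against 14.4%, while in He and WT none was. The exact negative binomial test called 12 lower in Ho and 7 lower in He, and 6 higher in WT, where it called 3.9%, 3.55% and 15.2% of tested genes in the same direction. The 5 in Ho were mt:ND6, mt:ND2, mt:ATPase8, mt:ND3 and mt:ND4L, which are the 5 with the fewest reads. mt:ND2 had 3.32, 10.2 and 5.11 normalized reads in Ho17, against 389, 156 and 824 in Ho16 (limma difference -4.80 ± 0.89, SE, adjusted p = 0.0015). mt:ND6 had no read in any Ho17 library, against 23, 13 and 183 reads in Ho16 (adjusted p = 0.00115, limma). With 3 reads over the Ho17 group as the limit that a count of 0 allows, its normalized level was at least 113-fold lower in Ho17 than in Ho16 and at least 10.9-fold lower than in WT17, where it had 1 and 26 reads. These bounds became 69.9-fold without Ho16c and 1.51-fold without WT17c. Against He17 the bound was only 1.598-fold, and WT16c and He17c also had no mt:ND6 read. The bounds cover the counting error of Ho17 only and leave out the spread between libraries. mt:ND6 overlaps no other annotated exon, and none of the mitochondrial members shared more than 7 exon bases with a neighbour.

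The abundant members differed less and their groups overlapped. mt:CoI had a log2 ratio of -1.59 between Ho17 and Ho16. Its groups overlapped, since Ho17c, at 16679.8 normalized reads, was above Ho16b, at 10259. mt:ND4 of complex I had 396, 742 and 1889.8 normalized reads in Ho17, against 1564, 347 and 11693 in Ho16, and its difference turned positive without Ho16c. mt:ND5, also of complex I, had 284, 441 and 1524 in Ho17, against 3085, 793 and 8007 in Ho16, with overlap between Ho17c and Ho16b. mt:CoII, which holds the copper site that takes electrons from cytochrome c, had 1260.4, 2344 and 5559.7 normalized reads in Ho17, against 8524, 2546 and 9529.7 in Ho16. Whether the stage difference itself was unequal between Ho and WT was tested by the interaction, in which limma called no member at 0.001 or 0.05. All 13 mitochondrial and 40 of 42 nuclear members had a lower stage difference in Ho than in WT, against 5403 of 11584 tested genes. These counts depend on single libraries. The nuclear stage median in Ho was 0.51 without Ho16a and -0.51 without Ho16c, against 0.48 in WT. The mitochondrial one in WT was -0.91 without WT17c and 1.04 without WT16c. At an unadjusted p under 0.05, 4 mitochondrial members and 1 nuclear member, ox, were lower, against 1.81% of all tested genes. The smallest adjusted p among them was 0.631, for mt:ND6. In the interaction of He with WT no member had an unadjusted p under 0.05.

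The make-up of the mitochondrial reads varied less than their amount for the 8 abundant genes, whose shares differed by 1.64-fold to 6.76-fold between the lowest and the highest library. Among the 5 scarce genes the shares of mt:ND2 and mt:ND4L differed by 58.0-fold and 62.9-fold, and those of the other 3 were 0 in at least 1 library. mt:CoI took 38.1% to 62.5% of the mitochondrial reads, mt:CoIII 9.99% to 24.1%, mt:CoII 6.62% to 20.3% and mt:Cyt-b 5.23% to 15.9%. Ho16c and He16c stood apart from the other 12 libraries in the genes between these. mt:ATPase6 made up 7.73% and 7.40% in Ho16c and He16c, against 1.24% to 3.76% in the others. mt:ND1 made up 4.17% and 4.15%, against 0.74% to 1.82%. The 4 genes on the minus strand, mt:ND5, mt:ND4, mt:ND4L and mt:ND1, together took 18% in Ho16c and 15.7% in He16c, against 5.12% to 10.6% in the other libraries. Both libraries also had the highest mitochondrial sums in CPM.

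**Figure D5:**
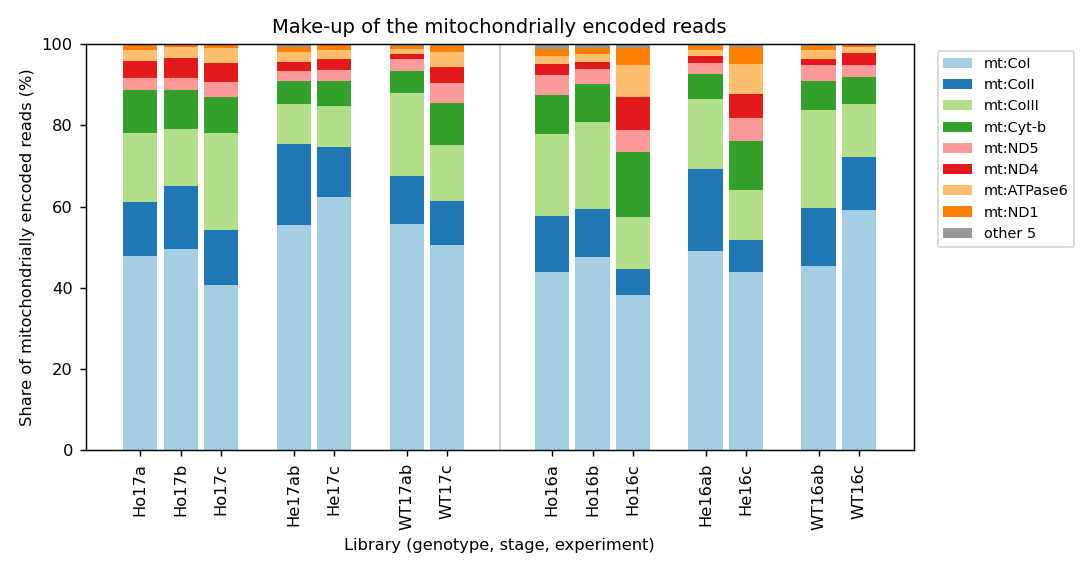
Share of mitochondrially encoded reads (percent) taken by each gene in the 14 libraries, stage 17 left and stage 16 right, with the 5 scarcest genes stacked as other. mt:CoI takes 38.1% to 62.5%, and the shares of mt:ND4, mt:ATPase6 and mt:ND1 are widest in Ho16c and He16c.

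Genes outside the 55 members were read from lists of the same pathway. Of 19 tested complex I subunits not among the members, 18 were on the higher side in WT17 over WT16, with a median log2 ratio of 0.36, and 19 in He17 over He16, with a median of 0.66, and no gene of this list had an unadjusted p under 0.05 in either (limma). In Ho17 over Ho16 the log2 ratio was negative in 16 of 19, with a median of -0.19. Without Ho16a it was positive in 15 of 19, with a median of 0.24. Without Ho16c it was positive in 0 of 19, with a median of -0.75. Without both it was positive in 7 of 19, with a median of -0.07. Of 12 tested genes for mitochondrial gene expression and DNA maintenance, 1 was higher and 5 were lower in Ho17 than in Ho16 at an unadjusted p under 0.05, of which 2 were lower at an adjusted p under 0.05 (limma). Over all tested genes these shares were 23.9% higher and 14.4% lower, and 8.49% lower at the adjusted p. In Ho16 over WT16 this list had a median of 0.30, with 7 genes on the higher side and 5 on the lower. Without overlap 4 lay above and 3 below, against 8.5% and 10.8% of all tested genes. The 2 genes with the largest differences were both among those above. TFAM, which packages mitochondrial DNA and aids its transcription, had a log2 ratio of 0.72 there and PolG2, the accessory subunit of its polymerase, one of 0.82, both with every Ho16 library above WT16 (adjusted p of 0.744 and 0.792, limma). Among 3 regulators of mitochondrial biogenesis, srl, the fly relative of the PGC-1 coactivators, had a log2 ratio of -0.37 and Ets97D one of 0.81, both with overlap. In WT17 over WT16, MTPAP, the mitochondrial poly-A polymerase, had a log2 ratio of 1.28 (adjusted p = 0.140, limma), and ewg one of -0.67. These lists were described by counts only and no test of a list was made.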

How the data were processed

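Poly-A mRNA from 14 pools of embryos was sequenced for 36 or 38 cycles. The authors aligned reads with Bowtie, counted them per gene of FlyBase release 5.22 and deposited variance-stabilised values from DESeq, on a log2-like scale per the file headers. In the deposited log2 values 1 unit is not 1 log2 step of reads (from 3.44 around a value of 1 to 0.76 around 9). Because all libraries followed 1 curve, whole reads could be recovered: 99.841% of 158533 values above 0 came out within 0.05 of a whole read. Counts behind 0 and low values cover counting error only.

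The filter kept genes that reached 10 reads, scaled to the median library, in 2 or more libraries, with a total of 15 or more. limma 3.58.1 (R 4.3.3; empirical Bayes with trend) was fitted to the deposited values of all 14 libraries with 6 group means, 8 residual degrees of freedom and Benjamini-Hochberg adjustment over 11584 genes, with calls at 0.001. Ratios are differences of mean log2 (normalized reads + 1). An exact negative binomial test, rewritten with locfit 1.5.9.12 after that of the authors' tool, served as an alternative. It called 206 genes higher and 31 lower in Ho16 than in WT16, and 1756 higher and 331 lower in WT17 than in WT16. Exon lengths and overlaps came from Ensembl release 115 (BDGP6), with lengths for 95.6% of tested genes. No coordinate is given, as the builds differ.

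Named are all mitochondrial members, the most abundant nuclear member of each complex, cytochrome c, called members, and the 2 nuclear members with the largest rise and fall in Ho16 over WT16, Ho17 over WT17 and WT17 over WT16; others were named after their values were seen. The members and lists were chosen with earlier results of these data known. Pools were prepared separately, and the limma p-values measure the spread between these libraries. The exact negative binomial test took the variance of a gene from a curve of variance on mean over all tested genes. A gene's own spread between libraries did not enter that test. The median within-group standard deviation was 1.64 for the mitochondrial members, against 0.54 for all tested genes. The fits were tested on simulated data. Alternatives were other filters, scales, scalings, weights, a length correction, a replicate block and left-out libraries.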

Additional observations from a re-analysis of the deposited data

Results flagged for a closer look

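In 10 cases every library of a group lay on one side at 1 stage, or in 1 genotype, and on the opposite side in the other, and the differences below are on the deposited scale, which stretches low values. How many of all tested genes did the same was not counted. The 10 cases are therefore a list and not a result about the members. For mt:ND2 the difference from WT was 4.29 in Ho16 and -1.56 in Ho17. For mt:ATPase8 these values were 2.35 and -1.85, and for mt:ND6 they were 3.52 and -2.10, all on few reads. mt:ND3 differed between stage 17 and stage 16 by -3.48 in Ho and by 1.65 in WT. The test of the difference itself (limma interaction) gave adjusted p of 0.652 for mt:ND2, 0.631 for mt:ND6 and 0.984 for mt:ATPase8 and mt:ND3.

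Among nuclear genes, ox differed from WT by 0.98 in Ho16 and by -1.23 in Ho17, and between stages by -1.30 in Ho and by 0.91 in WT (interaction, limma adjusted p = 0.984). The difference of He from WT was -0.44 at stage 16 and 0.23 at stage 17 for ATPsynF, and -0.42 and 0.26 for ATPsynE (interaction, limma adjusted p = 1 for both). The difference of Ho from He was 0.74 at stage 16 and -0.16 at stage 17 for ATPsynD, and 1.01 and -0.43 for COX7C, and whether these differ between stages was not tested. None of the 8 tested cases passed a test of the difference.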

How the results depend on the processing

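The number of called members depended most on the test. The exact negative binomial test called mitochondrial members where limma called 0, namely 13 in Ho16 over WT16, 6 in He16 over WT16, 1 in Ho16 over He16, 5 in He17 over WT17, 2 in Ho17 over He17, 6 in WT17 over WT16, 7 in He17 over He16 and 12 in Ho17 over Ho16. It called 1 nuclear member in WT17 over WT16, 3 in He17 over He16 and 0 in Ho17 over Ho16, and the cause was not tested. At an adjusted p of 0.05 limma called 1 and 2 nuclear members in WT17 over WT16 and He17 over He16, and 5 mitochondrial members in Ho17 over Ho16. With array weights it called 1 and 3 nuclear members in WT and He, and without Ho16a and Ho16c 1 and 2. The 1 mitochondrial member called in Ho17 over Ho16 without a filter or with TMM scaling was mt:ND6. The 1 nuclear call in Ho17 over Ho16, Cyt-c-p, became 0 with only the libraries compared, a pseudocount of 0.1, the length trend removed and experiments a and b only. Leaving out each library gave 0 to 1 nuclear members called in WT17 over WT16, in He17 over He16 and in Ho17 over Ho16, and 0 to 1 mitochondrial members in Ho17 over Ho16; elsewhere it gave 0.

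In He16 over WT16 the differences ran, with each library left out, from -0.54 (without He16c) to 2.21 (without He16ab) for mt:CoI, and likewise from -0.58 to 5.53 for mt:ATPase6, -0.58 to 2.14 for mt:CoIII, -0.93 to 3.76 for mt:ND5, -0.74 to 4.69 for mt:ND4, -0.70 to 3.90 for mt:Cyt-b and -0.43 to 5.39 for mt:ND1. With experiments a and b only they were -0.0043 (mt:ND2), -0.30 (mt:ATPase6), -0.38 (mt:CoIII), -0.42 (mt:ND5), -0.00074 (mt:Cyt-b) and -0.11 (mt:ND1). mt:CoI was -0.11 without WT16ab, and mt:ND6 ran from -0.0087 without WT16c to 2.02 without WT16ab. In Ho17 over Ho16 mt:ND4 ran from -3.0003 without Ho16b to 0.19 without Ho16c, and was 1.05 with array weights and 1.58 without Ho16a and Ho16c, and mt:ATPase6 was 0.017 and 0.48 under the last 2 of these settings. The causes were not tested.

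Deviations of the c libraries from their group means were positively correlated in all 15 pairs (0.02 to 0.34), and over 0.1 in 12 of them. The c libraries thus shared a part of their deviations, and the cause was not tested. With the letter as a replicate block the same member, Cyt-c-p in Ho17 over Ho16, was called (adjusted p = 0.000774, limma) and the count of 1 did not change. The 2 alternatives without Ho16a and Ho16c and with experiments a and b only were chosen after seeing the data. Depth limits the 5 scarce mitochondrial genes, since 3 reads equal 0.129 to 0.631 CPM.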
